A study of Arabidopsis thaliana with 2 samples.

Results

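The genes described here are 7 Arabidopsis thaliana genes that build, export or move the lipids of the leaf surface: the regulator SHN1, the cutin synthesis enzymes LACS2, CYP86A4 and GPAT4, the exporter ABCG11, and the lipid transfer proteins LTP1 and LTP3. All but SHN1, which has no value here and was not analysed, are listed by the authors as higher in WRKY75 RNAi leaves. These 6 were chosen by that listing, which rests on their reads in the 2 libraries, so their ratios between the genotypes are a description and carry no test. They stand among 1231 loci listed as higher and 2159 loci listed in either direction. All values come from 2 libraries of polyadenylated RNA. One is from the third and the fourth leaves of 28-day-old plants carrying an RNAi construct against WRKY75, a gene for a WRKY transcription factor, and the other from the same leaves of wild-type plants, both in the Col-0 background. The promoter of the construct, the number of RNAi lines and the number of plants pooled are not given by the labels. In such bulk tissue, more cells of a type and more RNA per cell cannot be told apart. With 1 library per genotype there is no spread between plants, and the 95% intervals below cover counting error only.

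Cutin is a polyester of hydroxylated fatty acids and glycerol that forms the frame of the plant cuticle, the layer that seals the outer wall of epidermal cells. Fatty acids are activated to acyl-CoA by long-chain acyl-CoA synthetases, hydroxylated at the chain end by CYP86A cytochromes P450 and joined to glycerol by glycerol-3-phosphate acyltransferases. The monomers leave the cell through ABCG transporters, and small secreted lipid transfer proteins, which bind lipids in a hydrophobic pocket, are thought to carry lipids through the cell wall.

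The implied library totals were 38042482 reads for WRKY75 RNAi and 41328980 for wild type. WRKY75 itself (AT5G13080) had 476 reads in the RNAi library, against 1699 in wild type. Its level was 8.87 RPKM in the RNAi library, against 29.2 in wild type (RPKM: reads scaled to the deposited length of the transcript model and to the library total). The RNAi level was 30.4% of the wild-type level, a log2 ratio of -1.72 (-1.87 to -1.57). The authors listed 1360 transcript models as higher and 998 as lower, which is 4.32% and 3.17% of 31475 tested models. Their tables hold only models past a 2-fold difference and a p-value threshold, so a gene that is not listed may still differ, and genes that mark a leaf could not be checked in them.

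In the RNAi leaves the 6 measured genes together took 18744 reads (0.0493% of the library), against 6699 (0.0162%) in wild-type leaves. Their log2 ratios, RNAi over wild type, ran from 1.04 for ABCG11 to 4.61 for LTP3, with a median of 2.20. The median over the 1148 loci listed as higher that had reads in both libraries was 1.49. The summed level was 337.2 RPKM in the RNAi library and 84.95 RPKM in wild type. LTP1 made up 73.1% of this sum in the RNAi library and 58.9% in wild type, and 77.9% of the gain. The summed level therefore mainly describes 1 lipid transfer protein. This does not hold for the summed reads, of which LTP1 had 7731 in RNAi leaves and 1704 in wild-type leaves. ABCG11 had 6751 in RNAi leaves and 3555 in wild-type leaves. The genes are described singly below by role.

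**Figure D1:**
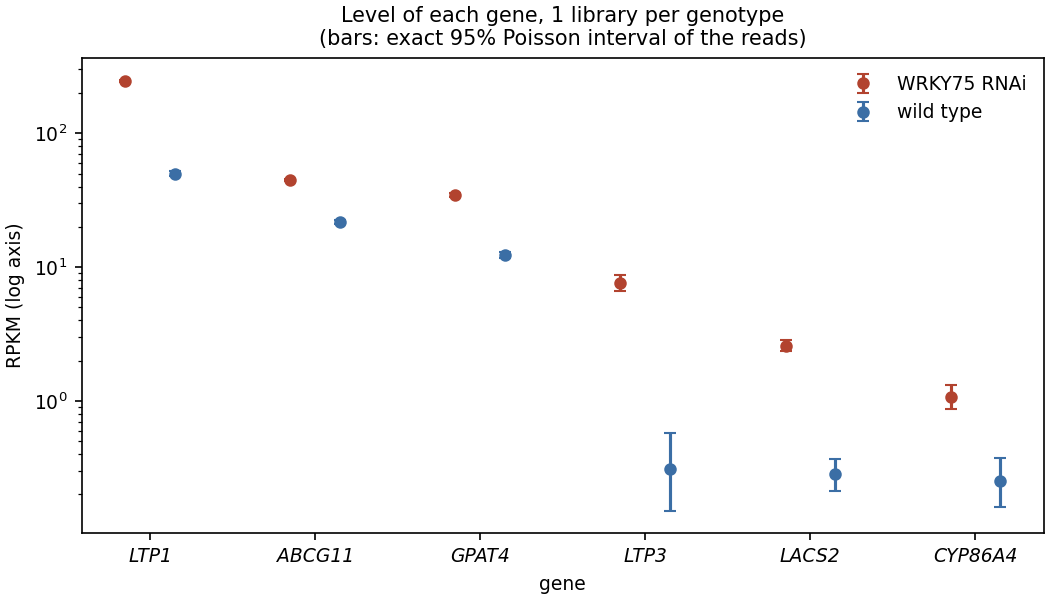
Level of each measured gene (RPKM, log axis) in the WRKY75 RNAi and the wild-type library, with exact 95% Poisson intervals. LTP1 is highest in both libraries (246.6 RPKM in RNAi, 50.04 in wild type) and CYP86A4 lowest (1.08 in RNAi, 0.253 in wild type).

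SHN1 (AT1G15360), an AP2/ERF transcription factor that activates cutin and wax genes, is the regulator among the 7, and no value of it is reported. Of the 13 other genes in its list of regulators of cuticle and epidermis, 1 was listed as higher and none as lower. For so short a list, the 1 gene listed as higher is near the 4.32% of all models. That gene was HDG1 (AT3G61150), an HD-ZIP IV factor of the epidermis, with 1977 reads in RNAi leaves and 1022 in wild-type leaves. Its level was 11.5 RPKM in RNAi leaves, against 5.48 in wild type, a log2 ratio of 1.07 (0.96 to 1.18).

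LACS2 (AT1G49430), the acyl-CoA synthetase that activates cutin precursors, had 472 reads in RNAi leaves and 56 in wild-type leaves. Its level was 2.59 RPKM in RNAi leaves (2.37 to 2.84), against 0.283 RPKM in wild type (0.214 to 0.368). The log2 ratio was 3.19 (2.79 to 3.62), or 9.16-fold (6.93 to 12.3), which ranked 85 among the 1148 listed loci. LACS2 has 18 introns, and the deposited length of 4782 bases is 1.91 times its spliced length of 2508 bases in the TAIR10.1 annotation. Per spliced length its level was 4.95 RPKM in RNAi leaves and 0.540 in wild-type leaves, so the deposited values are low when it is set beside genes with few introns, while its ratio is not touched.

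CYP86A4 (AT1G01600), a cytochrome P450 that hydroxylates fatty acids at the chain end, had 94 reads in RNAi leaves and 24 in wild-type leaves. It had the lowest level of the 6, with 1.08 RPKM in RNAi leaves (0.871 to 1.32) and 0.253 RPKM in wild-type leaves (0.162 to 0.377). The log2 ratio was 2.09 (1.43 to 2.80), or 4.26-fold (2.69 to 6.97). With 1 RPKM added to both levels it was 0.73, since both levels are near or below that amount.

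GPAT4 (AT1G01610), an acyltransferase that joins hydroxylated acyl chains to glycerol, had 3471 reads in RNAi leaves and 1350 in wild-type leaves. Its level was 34.4 RPKM in RNAi leaves (33.3 to 35.6) and 12.3 RPKM in wild-type leaves (11.7 to 13.0). The log2 ratio was 1.48 (1.39 to 1.57), or 2.79-fold (2.62 to 2.98), close to the median of 1.49 over listed loci. Within the enzymes, the log2 ratio of LACS2 exceeded that of GPAT4 by 1.71 (1.30 to 2.15) and that of CYP86A4 by 1.11 (0.28 to 1.90). CYP86A4 and GPAT4 were not separated by counting error, with a difference of 0.61 (-0.059 to 1.33).

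ABCG11 (AT1G17840), the plasma-membrane transporter through which cutin and wax lipids leave epidermal cells, had 6751 reads in RNAi leaves and 3555 in wild-type leaves. Its level was 44.8 RPKM in RNAi leaves (43.8 to 45.9), against 21.7 RPKM in wild type (21.0 to 22.5). The log2 ratio was 1.04 (0.986 to 1.10), or 2.06-fold (1.98 to 2.15), which ranked 1069 among the 1148 listed loci. ABCG11 lies just inside the threshold of the tables, whose smallest ratio among higher models was 1.001, and genes just outside it were not analysed here. It is also the only one of the 6 whose gene overlaps others. In TAIR10.1 the protein-coding AT1G17850 overlaps it by 596 bases and the non-coding AT1G05337 by 429 bases, both on the opposite strand. No strand setting is stated, so reads of these genes cannot be told apart there.

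LTP1 (AT2G38540), a secreted lipid transfer protein known from epidermal cell walls, had 7731 reads in RNAi leaves and 1704 in wild-type leaves. Its level was 246.6 RPKM in RNAi leaves (241.2 to 252.2), against 50.04 RPKM in wild type (47.7 to 52.5). The log2 ratio was 2.30 (2.23 to 2.38), or 4.93-fold (4.68 to 5.20). By level in RNAi leaves it ranked 24 among 1229 listed loci.

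LTP3 (AT5G59320), a lipid transfer protein of the same type, had 225 reads in RNAi leaves and 10 in wild-type leaves. Its level was 7.64 RPKM in RNAi leaves (6.68 to 8.71) and 0.313 RPKM in wild-type leaves (0.150 to 0.575). The log2 ratio was 4.61 (3.71 to 5.69), or 24.4-fold (13.0 to 51.7), the largest of the 6 and rank 11 among the 1148 listed loci. The width of this interval comes from the 10 wild-type reads, and with 1 RPKM added to both levels the log2 ratio was 2.72. The log2 ratio of LTP3 exceeded that of LTP1 by 2.31 (1.40 to 3.39) and that of LACS2 by 1.42 (0.40 to 2.58).

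The order of levels was the same in both libraries: LTP1, ABCG11, GPAT4, LTP3, LACS2, CYP86A4. In the RNAi library no neighbours in this order had overlapping intervals. In the wild-type library the intervals of LTP3, LACS2 and CYP86A4 overlapped, so their order there is not resolved by the reads. Per spliced length, LACS2 (0.540 RPKM) came before LTP3 (0.315 RPKM) in wild type. The deposited lengths of GPAT4 and ABCG11 are also 1.38 and 1.23 times their spliced lengths. Per spliced length GPAT4 was at 47.6 RPKM in RNAi leaves and 17.0 RPKM in wild-type leaves. ABCG11 was at 55.3 RPKM in RNAi leaves and 26.8 RPKM in wild-type leaves. The highest level was 228.8 times the lowest in the RNAi library and 197.5 times the lowest in wild type.

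**Figure D2:**
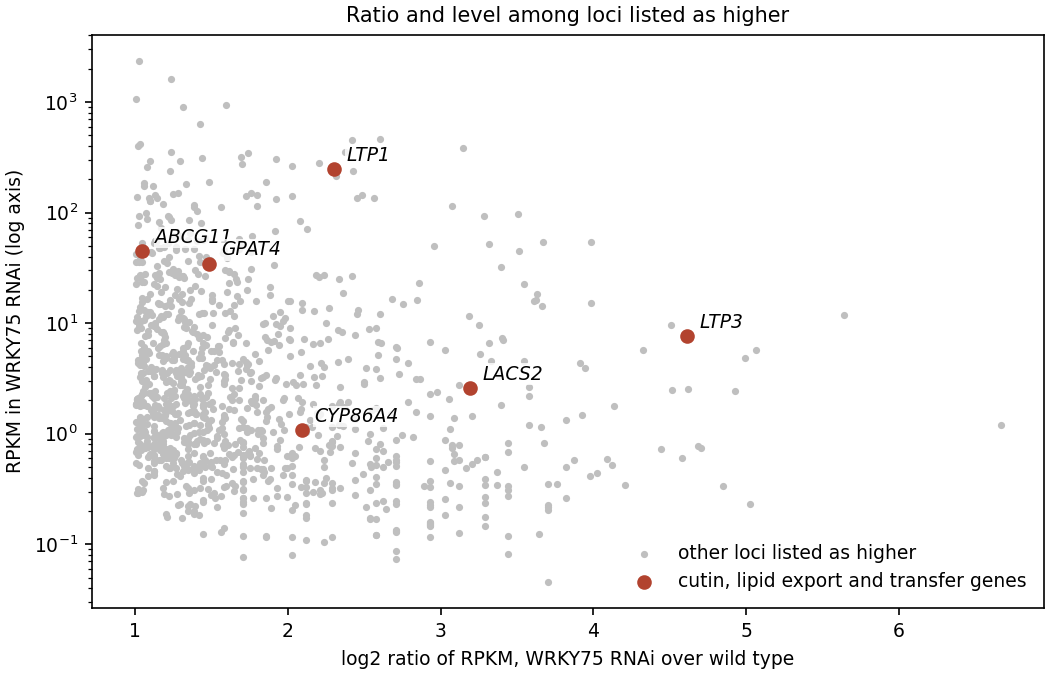
Level in the WRKY75 RNAi library (RPKM, log axis, vertical) against the log2 ratio of RPKM, WRKY75 RNAi over wild type (horizontal), for the 1148 loci listed as higher with reads in both libraries; the 6 genes are in red. ABCG11 (1.04) lies at the low edge of the ratios, and LTP3 (4.61) is among the loci at the high end.

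LTP1 and LTP3 each stand beside a close relative in the genome, and the coding sequences are shown because they bear on whether reads of the pairs could be confused. LTP3 and LTP4 (AT5G59310) are neighbouring genes on opposite strands of chromosome 5, 2996 bases apart, and 86.7% of 339 aligned coding bases are identical. The lines below give the first 180 coding bases, 5′ to 3′, with the 25 bases that differ in capitals (TAIR10.1, chr5:23929051-23929230 on the + strand for LTP3 and chr5:23925593-23925772 on the - strand for LTP4; sequences from RefSeq).
LTP3: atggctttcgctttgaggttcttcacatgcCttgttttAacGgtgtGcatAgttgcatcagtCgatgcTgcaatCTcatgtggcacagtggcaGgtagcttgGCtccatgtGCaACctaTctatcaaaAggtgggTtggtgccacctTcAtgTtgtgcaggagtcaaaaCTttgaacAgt
LTP4: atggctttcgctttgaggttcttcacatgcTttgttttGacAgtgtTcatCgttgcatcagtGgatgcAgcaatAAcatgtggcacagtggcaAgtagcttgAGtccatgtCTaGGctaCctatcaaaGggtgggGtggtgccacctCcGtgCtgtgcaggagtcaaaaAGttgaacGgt
The longest run shared by the transcripts of this pair was 44 bases, and 1.64% of all 36-base windows of the LTP3 transcript also occur in a transcript of another locus. LTP4 had 18 reads in RNAi leaves and 2 in wild-type leaves, a log2 ratio of 3.29 (1.23 to 6.44). Its ratio and that of LTP3 were not separated, with a difference of 1.32 (-2.02 to 3.71).

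LTP1 and LTP2 (AT2G38530) follow each other on the + strand of chromosome 2, 890 bases apart, and 82.4% of their 357 aligned coding bases are identical. Their first 180 coding bases differ at 36 positions, given in capitals (TAIR10.1, chr2:16130418-16130597 for LTP1 and chr2:16128481-16128660 for LTP2; sequences from RefSeq).
LTP1: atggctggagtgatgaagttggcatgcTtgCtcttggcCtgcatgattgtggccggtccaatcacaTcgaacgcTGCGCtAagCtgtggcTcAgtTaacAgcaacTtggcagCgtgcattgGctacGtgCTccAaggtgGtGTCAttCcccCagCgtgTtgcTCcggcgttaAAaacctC
LTP2: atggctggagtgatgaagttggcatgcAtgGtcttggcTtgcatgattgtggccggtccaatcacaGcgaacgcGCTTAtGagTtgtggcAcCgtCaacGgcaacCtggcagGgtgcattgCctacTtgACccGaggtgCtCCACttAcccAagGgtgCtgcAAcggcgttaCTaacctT
The longest run shared by these transcripts was 40 bases, and 0.627% of the 36-base windows of LTP1 occur elsewhere. LTP2 had 1393 reads in RNAi leaves and 579 in wild-type leaves, at 46.9 RPKM in RNAi leaves and 18.0 RPKM in wild type. Its log2 ratio was 1.39 (1.25 to 1.53), which that of LTP1 exceeded by 0.92 (0.75 to 1.08). The windows count exact matches only, and reads aligned with mismatches could be shared beyond them. The read length is also not stated, so how many reads of either pair could be shared is not known.

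Among the enzymes the longest shared runs were 50 bases between CYP86A4 and CYP86A2, 35 between GPAT4 and GPAT8, and 26 between LACS2 and LACS1. In 36-base windows, 0.656% of CYP86A4 and none of GPAT4, LACS2 or ABCG11 occurred in a transcript of a locus that does not overlap the gene. AT1G17850 and AT1G05337, which overlap ABCG11, were left out of this search. Coding identity was 83.2% for both CYP86A4 with CYP86A2 and GPAT4 with GPAT8, and 62.4% for ABCG11 with ABCG12.

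In the list of 17 cutin synthesis genes, 6 were listed as higher, 35.3% against 4.32% of all models, and none as lower; 11 were not listed. Of these 6, 3 are the enzymes described above, whose choice fixed 3 of the count. The other 3 were CYP86A2, CYP86A8 and the hydrolase BDG, among 14 further genes. CYP86A2 (AT4G00360), a fatty acid hydroxylase of cutin synthesis, had 20430 reads in RNAi leaves and 9496 in wild-type leaves. At 238.2 RPKM in RNAi leaves and 101.9 RPKM in wild type it was far more abundant than CYP86A4, at a log2 ratio of 1.22 (1.19 to 1.26). The log2 ratio of CYP86A4 exceeded it by 0.86 (0.20 to 1.58). CYP86A8 (AT2G45970), another hydroxylase of this family, had 483 reads in RNAi leaves and 236 in wild-type leaves, a log2 ratio of 1.15 (0.93 to 1.38). BDG (AT1G64670), an alpha/beta hydrolase of the epidermal wall that the cuticle needs, had 483 reads in RNAi leaves and 220 in wild-type leaves, a log2 ratio of 1.25 (1.02 to 1.49). Genes on the opposite strand overlap CYP86A2 (ANTR2 by 127 bases and the non-coding AT4G03585 by 782) and BDG (MGL by 38), so reads there cannot be told apart. GPAT8 and LACS1, the relatives of GPAT4 and LACS2, were not listed.

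Of 12 ABCG transporters of lipids, 3 were listed as higher, against 4.32% of all models, and none as lower. ABCG11 was chosen by its listing, which fixed 1 of the 3; of the 11 others 2 were listed as higher. These were ABCG12 (AT1G51500), its partner in wax export, and ABCG13 (AT1G51460), known from cutin export in flowers. ABCG12 had 6098 reads in RNAi leaves and 2756 in wild-type leaves, at 48.8 RPKM in RNAi leaves and 20.3 RPKM in wild type. Its log2 ratio was 1.27 (1.20 to 1.33); that of ABCG11 differed from it by -0.22 (-0.31 to -0.13), a small but resolved gap given counting error. ABCG13 had 38 reads in RNAi leaves and 17 in wild-type leaves, a log2 ratio of 1.28 (0.42 to 2.20).

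Of 12 type 1 lipid transfer proteins, 5 were listed as higher, against 4.32% of all models, and none as lower. The choice of LTP1 and LTP3 fixed 2 of the 5, and of the 10 others 3 were listed as higher. Those were the neighbours LTP2 and LTP4, described above, and LTP7 (AT2G15050), which had 545 reads in RNAi leaves and 223 in wild-type leaves. The log2 ratio of LTP7 was 1.41 (1.18 to 1.64). Among 7 anchored and hybrid lipid transfer proteins, none of which was among the 6, 3 were listed as higher and 1 as lower, against 4.32% and 3.17% of all models. LTPG1 (AT1G27950), a membrane-anchored protein of wax export, had 7948 reads in RNAi leaves and 3948 in wild-type leaves, a log2 ratio of 1.13 (1.07 to 1.18); ECT9 on the other strand overlaps it by 23 bases. LTPG2 (AT3G43720), its close relative, had 2929 reads in RNAi leaves and 1484 in wild-type leaves, a log2 ratio of 1.10 (1.01 to 1.19). LTPG6 (AT1G55260) had 1084 reads in RNAi leaves and 295 in wild-type leaves, a log2 ratio of 1.997 (1.81 to 2.19). LTPG5 (AT3G22600) went the other way, with 1861 reads in RNAi leaves and 6173 in wild-type leaves, or 50.8 RPKM in RNAi leaves and 155.1 RPKM in wild type. Its log2 ratio was -1.61 (-1.69 to -1.54).

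**Figure D3:**
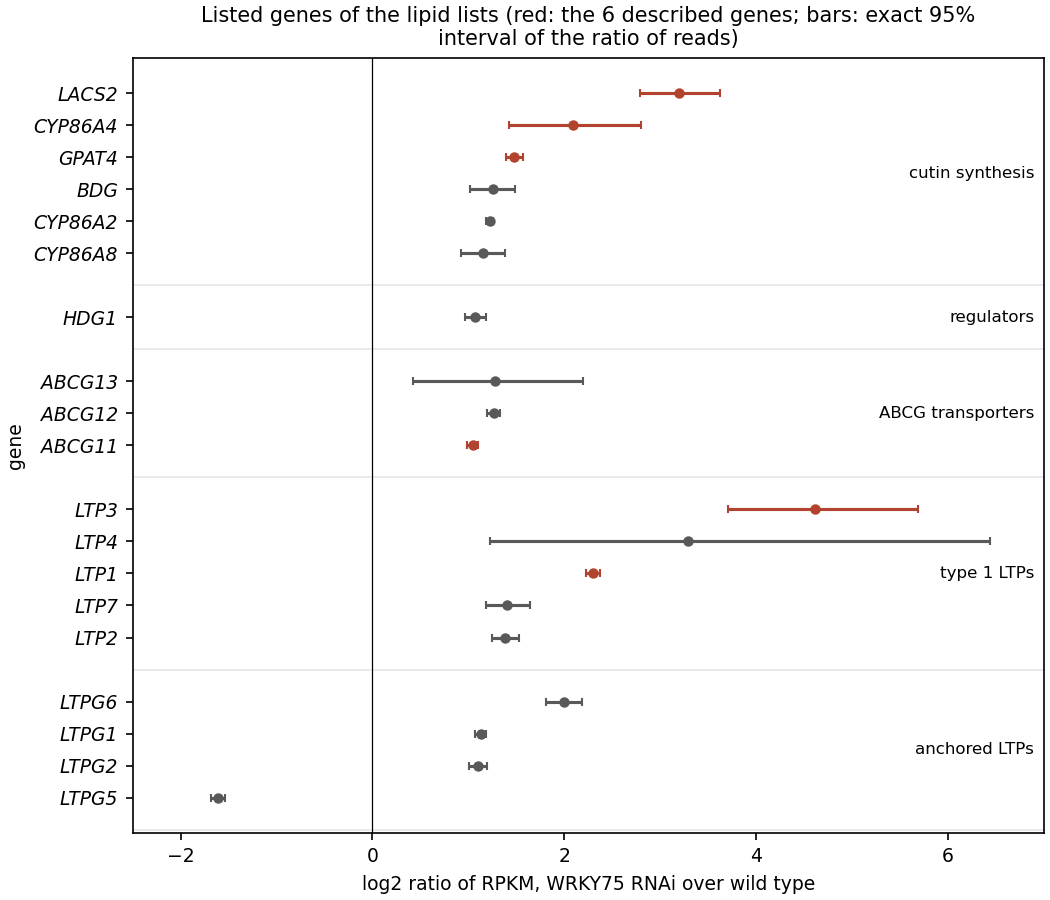
Log2 ratio of RPKM, WRKY75 RNAi over wild type, of the listed genes of 5 lists, with bars for the exact 95% interval of the ratio of reads; the 6 described genes are in red and the others in grey. LTPG5 (-1.61) is the 1 gene below 0, and the intervals of LTP3 (3.71 to 5.69) and LACS2 (2.79 to 3.62) lie above that of GPAT4 (1.39 to 1.57).

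**Figure D4:**
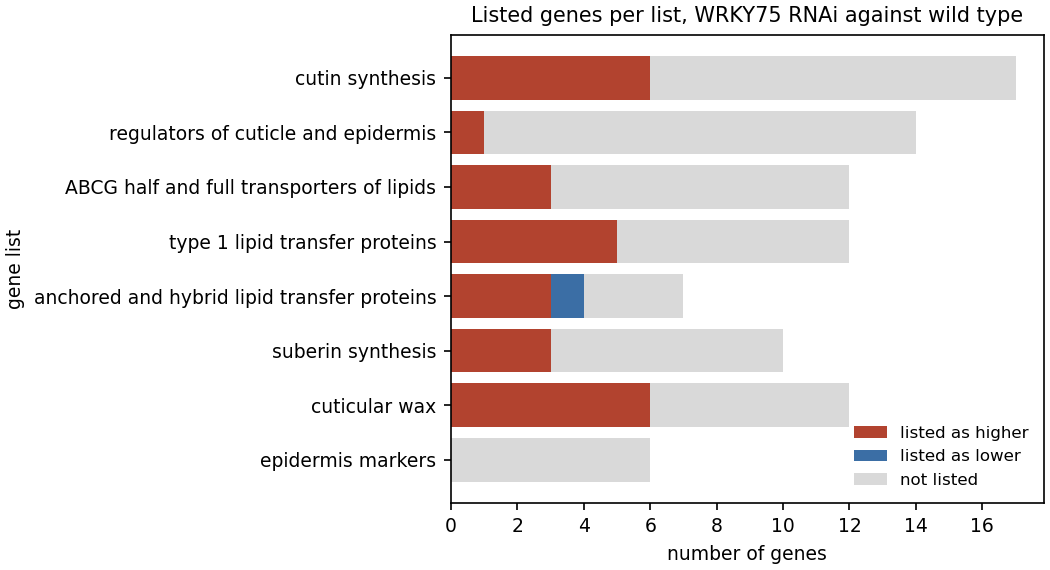
Number of genes of each list that were listed as higher in WRKY75 RNAi (red), listed as lower (blue) or not listed (grey). SHN1, which was not analysed, is drawn in grey among the regulators. Genes listed as higher numbered 6 of 17 for cutin synthesis, 5 of 12 for type 1 lipid transfer proteins, 6 of 12 for cuticular wax and 3 of 10 for suberin, and none of 6 epidermis markers was listed. Of all models, 4.32% were listed as higher. The choice of the described genes fixed 3 of the 6 for cutin synthesis and 2 of the 5 for type 1 lipid transfer proteins.

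Markers of the cell types of a leaf were set beside these results. None of 6 epidermis markers (PDF1, FDH, ATML1, PDF2, ACR4 and GL2) was listed. Of 4 trichome markers, GL3 was listed as higher, with 63 reads in RNAi leaves and 22 in wild-type leaves. The non-coding AT5G06145 overlaps GL3 by 36 bases on the other strand. Of 7 guard cell and stomatal markers, TMM was listed as higher, with 59 reads in RNAi leaves and 25 in wild-type leaves. None of 5 flower markers was listed. With lists this small, counts of 0 or 1 are close to the 4.32% of all models listed as higher. The levels of markers that are not listed are not in the tables used here, and the part of any cell type in the results was not tested.

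In the genome, CYP86A4 and GPAT4 are direct neighbours on chromosome 1, with their ends facing each other across 355 bases. Between the genes bordering the 6, outside the 6 themselves, 3 of 10 were listed as higher, against 4.32% of all models, and none as lower. These were LTP2, LTP4 and AT1G17830, which is separated from ABCG11 by 3901 bases. AT1G17830 had 377 reads in RNAi leaves and 170 in wild-type leaves, a log2 ratio of 1.27 (1.004 to 1.54).

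Outside the lists, the genes with at least 100 reads in each library whose log2 ratio came closest to the median of the 6 were COR15A, AT4G35160 and AT4G21910. COR15A (AT2G42540), a cold-regulated chloroplast protein, had 11212 reads in RNAi leaves and 2652 in wild-type leaves. AT4G35160 had 2041 reads in RNAi leaves and 482 in wild-type leaves, and AT4G21910 had 4165 in RNAi leaves and 998 in wild-type leaves. Their log2 ratios of 2.20, 2.20 and 2.18 lay within 0.0145 of the median. This likeness rests on 1 ratio per gene.

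Promoter windows, from 250 bases before to 50 after each gene start in TAIR10.1, were searched on both strands for 9 motifs and set beside 27443 promoters. TTGAC, the core of the W-box bound by WRKY factors, occurred in 3 of the 6, in GPAT4 at -185, LTP1 at -102 and LTP3 at -133, and in 50.5% of all promoters. The longer W-boxes TTGACC and TTGACT, which contain this core, occurred in none of the 6 and in 14.2% and 21.8% of all promoters. The L1-box, bound by HD-ZIP IV factors of the epidermis, was searched in the loose form TAAATGNA, where N is any base. This form occurred in 2 of the 6, in ABCG11 upstream and in CYP86A4 at 31, after the gene start, and in 11.3% of all promoters. ACGTG, the core of the abscisic acid response element, occurred in CYP86A4 at -184 and in 26.7% of all promoters, while CACGTG, which contains it, occurred in none of the 6 and in 7.68%. The MYB element ACCNAAC occurred in LACS2 at -152 and in 17.2% of all promoters. Neither the GCC-box GCCGCC (2.57% of all promoters) nor the MYB core CNGTTA (30.3%) occurred in any of the 6. CYP86A2, ABCG12 and LTP4 each held both the W-box core and the loose form TAAATGNA, and LTP2 held neither. The W-box core of CYP86A2, at -35, is part of the longer TTGACT. The upstream matches of TAAATGNA in CYP86A2, ABCG12 and LTP4 read TAAATGAA, while those in ABCG11 read TAAATGCA and TAAATGTA. A match of letters is not a binding site, and these counts are a description.

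**Figure D5:**
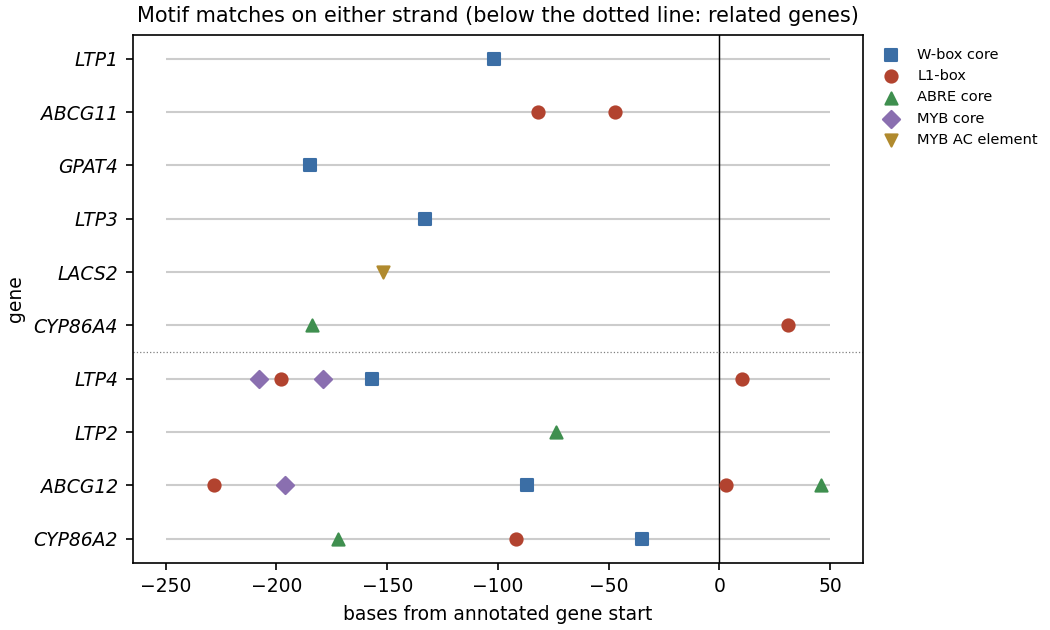
Position of motif matches, in bases from the annotated gene start (0), in the promoter windows of the 6 measured genes and, below the dotted line, of the related LTP4, LTP2, ABCG12 and CYP86A2; each symbol is a motif and motifs with no match are not drawn. The W-box core is at -185 in GPAT4, -133 in LTP3 and -102 in LTP1, and ABCG11 holds L1-boxes at -82 and -47.

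ABCG11 held 2 L1-boxes, at -82 and -47, given in capitals in the 250 bases before its gene start (TAIR10.1, chr1:6142152-6142401, + strand, from RefSeq).
ABCG11: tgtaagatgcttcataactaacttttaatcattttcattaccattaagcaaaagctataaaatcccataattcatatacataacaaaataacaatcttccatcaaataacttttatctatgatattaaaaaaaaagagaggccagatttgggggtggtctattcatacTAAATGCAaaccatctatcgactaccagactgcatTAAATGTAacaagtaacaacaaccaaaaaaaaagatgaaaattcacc

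The upstream windows of CYP86A4, CYP86A2 and LTP3 are shown for stretches that they share with a relative. CYP86A4 and CYP86A2 share a run of 24 bases, starting at -85 in CYP86A4 and at -219 in CYP86A2, found in 2 of 27443 promoters, their own. The LTP3 window shares a run of 30 bases with that of LTP4, starting at -67 in LTP3 and at 21 bases after the gene start in LTP4, also found in 2 promoters. Both runs are in capitals (TAIR10.1, + strand, chr1:218584-218833 for CYP86A4, chr4:160393-160642 for CYP86A2 and chr5:23928704-23928953 for LTP3; sequences from RefSeq).
CYP86A4: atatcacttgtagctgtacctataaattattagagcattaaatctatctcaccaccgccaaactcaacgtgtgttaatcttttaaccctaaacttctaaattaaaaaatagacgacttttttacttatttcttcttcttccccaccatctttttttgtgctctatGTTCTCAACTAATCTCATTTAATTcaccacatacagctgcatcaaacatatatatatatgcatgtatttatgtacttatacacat
CYP86A2: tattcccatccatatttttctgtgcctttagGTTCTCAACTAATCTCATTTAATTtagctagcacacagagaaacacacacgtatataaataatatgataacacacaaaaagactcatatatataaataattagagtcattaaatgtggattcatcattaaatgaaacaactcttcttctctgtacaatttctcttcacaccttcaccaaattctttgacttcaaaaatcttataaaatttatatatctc
LTP3: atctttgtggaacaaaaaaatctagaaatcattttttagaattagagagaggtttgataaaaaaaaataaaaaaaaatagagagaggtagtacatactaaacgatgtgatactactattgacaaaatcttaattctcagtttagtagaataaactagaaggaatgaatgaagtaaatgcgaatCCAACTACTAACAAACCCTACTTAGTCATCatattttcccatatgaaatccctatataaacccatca
The log2 ratios were 2.09 for CYP86A4, 1.22 for CYP86A2 and 4.61 for LTP3. Apart from SHN1, only genes listed as higher were searched for shared runs. That these 3 are listed was therefore fixed by the choice of genes, and a link between the runs and the ratios was not tested.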

How the data were processed

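Polyadenylated RNA of 1 WRKY75 RNAi and 1 wild-type leaf sample was sequenced with an Illumina protocol, per the labels. Reads were aligned with Bowtie to TAIR10, per the submitters' processing notes; the version, the counter, the strand setting, the read length and the authors' test are not stated there. For each model listed as higher or lower the deposited tables give read counts, RPKM values, log2 ratios (RNAi over wild type), p-values and false discovery rates. The deposited p-values served only to recover the number of models tested, 31475, at which their ranks were whole. They were not used otherwise, and no test of genotype was made.

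Library totals were taken from reads divided by the deposited RPKM and length. Each locus was represented by its listed model with the most reads; 1 row without a gene identifier (0.0384% of the RNAi and 0.103% of the wild-type total) was left out. Ratios were computed from RPKM, with 95% intervals from the exact Clopper-Pearson bounds on the share of reads in RNAi; levels have exact Poisson intervals, and differences of log2 ratios exact conditional intervals (SciPy 1.17.1). The intervals of the ratios and the recovery of the number of tested models were tried on simulated data, and the other intervals were not. Sequences, lengths and neighbours come from the RefSeq copy of TAIR10.1, matched by locus identifier; the deposited tables give no coordinates. Coding sequences were aligned with Biopython 1.88, and relatives of a gene were found by the longest run shared between transcripts of loci that do not overlap.

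The genes and the 11 gene lists were chosen with earlier results of these data known. The listed shares of the lists are therefore a description. They count genes, while the 4.32% counts transcript models. Genes named are the 7 chosen genes, WRKY75, every listed gene of the lists, listed neighbours and closest relatives, and the 3 listed loci outside the lists with at least 100 reads in each library and ratios closest to the median. Other pseudocounts, scaling, lengths, depths and thresholds were tried.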

Additional observations from a re-analysis of the deposited data

How the results depend on the processing

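No ratio of the 6 genes changed sign, but the settings tried could not have reversed one. An equal amount added to both levels and halved reads in both libraries keep the direction. Each of the 6 has 1 listed model, and the scaling shift is smaller than the smallest ratio, 1.04 for ABCG11. With 1 RPKM added to both levels, the log2 ratios, RNAi over wild type, were 0.73 for CYP86A4, 1.49 for LACS2 and 2.72 for LTP3. Scaled to the reads of all listed models, which shifts every ratio by -0.17, they were 1.31 for GPAT4, 0.87 for ABCG11 and 2.13 for LTP1; ABCG11 then lies below the 2-fold threshold. With the reads of both libraries halved, the interval of LTP3 was 3.34 to 6.26 and that of CYP86A4 1.15 to 3.14. Where the log2 ratio had to reach 2 in size, the listed genes numbered 2 for cutin synthesis, 3 for type 1 lipid transfer proteins and 2 for wax. They numbered 0 each for regulators (SHN1 not analysed), ABCG transporters, anchored and hybrid lipid transfer proteins, trichome markers and guard cell markers. Where the higher level had to reach 1 RPKM, the trichome and guard cell markers each numbered 0. Wax and type 1 lipid transfer proteins then numbered 4 each, and ABCG transporters and suberin 2 each. Where each library had to hold at least 10 reads, wax and type 1 lipid transfer proteins numbered 4 each and suberin 2. No paired analysis was possible because each genotype has 1 library, and for the same reason no library could be left out.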

Other observations

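Some genes of suberin and wax, the other lipids of plant surfaces, were also listed as higher. Of 10 suberin synthesis genes 3 were listed as higher and none as lower, against 4.32% and 3.17% of all models. FAR1 (AT5G22500), a fatty acyl reductase that makes the fatty alcohols of suberin, had 995 reads in RNAi leaves and 102 in wild-type leaves, a log2 ratio of 3.41 (3.11 to 3.71). A gene on the other strand, AT5G22505, overlaps FAR1 by 1310 bases, so their reads cannot be told apart. KCS2 (AT1G04220), an elongase of very long fatty acids, had 271 reads in RNAi leaves and 12 in wild-type leaves, a log2 ratio of 4.62 (3.79 to 5.59). On the other strand, the non-coding AT1G04247 overlaps KCS2 by 2302 bases and the protein-coding AT1G04210 by 41 bases. ASFT (AT5G41040), the feruloyl transferase of suberin, had 16 reads in RNAi leaves and 0 in wild-type leaves. AT5G41050 overlaps ASFT by 63 bases on the other strand.

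Of 12 cuticular wax genes 6 were listed as higher, against 4.32% of all models, and none as lower. CER3 had 8392 reads in RNAi leaves and 2853 in wild-type leaves, and CER1, which acts with CER3 in alkane formation, had 58 in RNAi leaves and 4 in wild-type leaves. The log2 ratios were 1.68 for CER3 and 3.98 for CER1. CER6, the elongase of wax precursors, had 12824 reads in RNAi leaves and 5741 in wild-type leaves, CER2, which overlaps genes on the other strand by 316 and 96 bases, had 4097 in RNAi leaves and 1640 in wild-type leaves, and CER10 had 2418 in RNAi leaves and 874 in wild-type leaves. The log2 ratios were 1.28 for CER6, 1.44 for CER2 and 1.59 for CER10. AT3G55350 overlaps CER10 by 27 bases on the other strand. The wax ester synthase WSD1 had 23 reads in RNAi leaves and 0 in wild-type leaves.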
